A study of Mus musculus with 30 samples.

Results

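Immediate early genes are genes whose transcription starts within minutes of a signal, without the need for new protein. The genes described are 10 listed members of this class, all found in each of the 4 tables of raw counts: Fos, Fosb, Fosl1, Jun, Junb, Egr1, Egr3, Ier2, Ier3 and Dusp1. They are 10 of 55401 annotated genes, are taken as a list of names, and all passed the filter on low counts in all 4 tables.

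Nuclear RNA was sequenced in 30 libraries from mouse embryonic stem cells (mESCs), in 15 groups of 2 replicates, all grown with serum and LIF. SRCAP is the ATPase of the complex that places the histone variant H2A.Z into chromatin. CGR8 is the parental mESC line, and its libraries were untreated (NT) or held for 4 h in the auxin IAA at 500 µM. SYAT cells are 1 homozygous clone of CGR8 in which YPet-AID was joined to the 3′ end of both Srcap alleles and OsTir1 was added by lentivirus, so that IAA degrades the SRCAP protein. Their controls (0 h) and IAA libraries (2, 4, 6 and 8 h) form a time course, and control cells were kept in auxinole, an inhibitor of OsTir1. SYAT cells with a fluorescent reporter degraded at mitosis were given IAA for 1 h or none and sorted by DNA content and reporter level into early G1 (EG1) and late G1 (LG1). SYAT cells with a doxycycline-inducible SRCAP transgene, either wild type (wtSRCAP) or an ATPase mutant deficient in H2A.Z deposition (cdSRCAP), were 1 clone each, sorted for similar transgene levels, and had doxycycline at 1 µg/mL for 24 h in both arms and IAA for 4 h in 1 arm. CGR8 lacks the degron, so its libraries ask what IAA alone does. The SYAT libraries without a transgene ask what loss of SRCAP does. In wtSRCAP and cdSRCAP cells IAA degrades the endogenous SRCAP, while the transgene SRCAP, fused to mCherry, stays in both arms. The wtSRCAP cells thus keep active SRCAP, and the 2 transgenes together ask whether catalytic activity matters. The paper gives auxinole as the control condition of SYAT cells and names it for the wtSRCAP and cdSRCAP controls. In SYAT-derived cells the IAA and control arms thus also differed in auxinole, which within a line cannot be told apart from loss of endogenous SRCAP. The wtSRCAP arms differed in auxinole and IAA in the same way, with active SRCAP in both. The part of auxinole in the results was not tested.

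In mESCs these genes read out the serum and growth factor signals that reach the nucleus through the ERK cascade and through stress kinases. Kinases modify factors that are already bound, among them SRF with its TCF partners at CArG boxes and CREB family members at cAMP response elements, and transcription begins without delay. Fos, Fosb, Fosl1, Jun and Junb encode the subunits of AP-1 dimers, Egr1 and Egr3 zinc finger transcription factors, Ier2 and Ier3 small proteins without a DNA-binding domain of these families, and Dusp1 a phosphatase that removes the activating phosphates from MAP kinases. Several of the transcripts decay within minutes, and a brief handling stress such as dissociation or sorting can also induce them.

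The bases before the start sites of 5 members are shown because elements for CREB family and AP-1 factors, the ATF/CRE type, recur there. Sequences are RefSeq promoters on GRCm38.p6, 5′ to 3′ on the gene's strand, and end at the base before the start. Capitals mark the letters TGACG (the core of the cAMP response element, CRE), the full palindromic element TGACGTCA, which contains that core, the related element TGACATCA, the TATA box as TATAAA, and the CCAAT box. All were searched on both strands. The table used held promoters for 6 members, Ier3 among them. Fosl1, Egr1, Egr3 and Ier2 were not in it.
Fos, chr12:85473770-85473889, plus strand: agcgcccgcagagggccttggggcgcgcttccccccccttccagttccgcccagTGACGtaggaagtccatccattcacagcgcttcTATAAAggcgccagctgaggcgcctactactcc
Fosb, chr7:19310046-19310165, minus strand: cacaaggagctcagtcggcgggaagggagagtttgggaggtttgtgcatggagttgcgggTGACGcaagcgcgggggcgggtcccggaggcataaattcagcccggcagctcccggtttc
Jun, chr4:95052223-95052342, minus strand: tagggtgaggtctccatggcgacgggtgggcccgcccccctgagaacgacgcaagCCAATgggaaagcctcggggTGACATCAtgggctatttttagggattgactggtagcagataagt
Junb, chr8:84978749-84978908, minus strand: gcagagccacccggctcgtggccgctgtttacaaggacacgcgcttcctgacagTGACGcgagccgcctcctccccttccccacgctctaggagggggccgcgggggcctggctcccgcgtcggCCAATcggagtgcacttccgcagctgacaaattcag
Dusp1, chr17:26508473-26508682, minus strand: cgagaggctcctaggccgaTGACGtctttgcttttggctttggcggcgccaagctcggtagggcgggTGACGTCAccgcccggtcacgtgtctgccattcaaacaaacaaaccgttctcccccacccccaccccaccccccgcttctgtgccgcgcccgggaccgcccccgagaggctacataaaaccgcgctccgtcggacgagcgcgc

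TGACG was found in the promoters of 4 of the 6 members (Fos, Fosb, Junb and Dusp1) and in 20.8% of all 32851 promoters of the same length. The full TGACGTCA was found only in Dusp1 among the 6, from −143 to −136 bases before the start, against 1.79% of all promoters. Jun held TGACATCA, the site of its own known autoregulation by Jun and ATF2, from −45 to −38, against 3.62% of all promoters. TATAAA was found in 2 of the 6 (13.6% of all promoters), from −33 to −28 in Fos and, past the start and so not printed, from 1 to 6 in Junb. All positions count from the RefSeq start. The GENCODE start of Junb, at base 84978718 on the minus strand, lies further downstream, so this match is before that start. CCAAT was found in 3 of the 6 (37.4%), from −65 to −61 in Jun, from −36 to −32 in Junb and, in Ier3, from −244 to −240 and from −175 to −171. The AP-1 site TGANTCA and the CArG box were in none of the 6 windows of 250 bases before and 50 after the start, against 7.81% and 1.63% of all promoters. These are matches of letters only.

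On GRCm38 with GENCODE vM21, Fos (ENSMUSG00000021250.13) lies at chr12:85473890-85477273 on the plus strand and overlaps no other gene. Jun (chr4:95049034-95052222, minus strand) and Ier2 (chr8:84661331-84662852, minus strand) are each a single exon, so their intron columns carry no information of their own. The annotated spans of some members overlap an antisense gene: Jun with Junos, Junb with Prdx2, Fosl1 with Ccdc85b and Dusp1 with Ergic1 and Gm8225. The span of Dusp1 (56539 bases, 3311 of them exon) also overlaps AC122252.1 and AC122252.4 on its own strand. Whether exons overlap was not checked. The strand setting of the counting is not given in the sources used here. For these 4 members, reads of an overlapping gene may thus not be told apart from their own. The exon columns are described first throughout, and the intron columns at the end.

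Exon counts per library ran from 45617992 to 60214521 in CGR8, from 17540823 to 22873893 in the time course, from 19740778 to 26672402 in the EG1 and LG1 libraries and from 12236493 to 26369773 in the wtSRCAP and cdSRCAP libraries. Values are given as CPM, counts scaled to library size by TMM within each table. Srcap RNA, which the degron does not act on, was at 21.3 to 24.2 CPM in CGR8 and 39.9 to 74.5 CPM in SYAT-derived cells. All 10 mESC marker genes were detected in 30 of 30 libraries (Pou5f1 at 317 CPM or more), with a summed level of 1953 to 5327 CPM. Markers of other cell types were also read: 4 of 8 fibroblast genes were above 0 in 30 of 30 libraries (sum 6.22 to 52.2 CPM, Postn at 0 in 30 and Lum at 0 in 27), as were 4 of 7 primitive endoderm genes (5.35 to 25.6 CPM, Foxa2 at most 0.675) and 5 of 6 trophoblast genes (62.0 to 264.4 CPM, Elf5 at most 0.377). Other markers of these lists were higher: Krt18 ran from 9.93 to 102.8 CPM, Krt8 from 9.62 to 90.8 and Tfap2c from 13.6 to 89.4. Of the fibroblast genes, Col1a1 ran from 1.36 to 31.6 CPM and Thy1 from 0.907 to 20.3. The part of these markers in the results was not tested. Some libraries stood apart by their mitochondrial share of exon counts: 0.529% in replicate 2 at 6 h against 1.80 to 2.44% in the rest of the time course, and 0.215% in wtSRCAP IAA replicate 1 against 0.606 to 0.808% in its table. In CGR8 this share was 0.575% in NT replicate 1 and 1.06 to 2.01% in the others. Values of members without these libraries stand beside the results that they changed most.

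Ier2 was the most abundant member per kilobase of exon in every control group, and Junb the second, with ranges that did not overlap. In SYAT controls Ier2 stood at 95.5 ± 1.47 CPM per kb (SD, n = 2) and Junb at 25.2 ± 3.39. Egr1 (12.1 ± 2.59), Dusp1 (10.6 ± 2.05) and Jun (9.65 ± 3.33) followed with overlapping ranges. Ier3 was at 4.68, Fos at 2.05, Fosl1 at 0.819, Egr3 at 0.445 and Fosb at 0.277 CPM per kb. Fos, the member most used as a marker of stimulation, was thus among the less abundant in these controls.

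In the sorted G1 cells the same order held at the top, and Fos was higher: 11.9 CPM per kb in EG1 controls and 15.1 in LG1 controls, against 2.05 in unsorted SYAT controls and 1.54 in CGR8. The summed level of the 10 members was 629.3 to 739.7 CPM in EG1 controls and 814.0 to 900.9 CPM in LG1 controls, against 311.1 to 366.7 CPM in SYAT controls, 354.6 to 419.0 CPM in CGR8 controls and 289.3 to 366.3 CPM in wtSRCAP and cdSRCAP controls. The wtSRCAP and cdSRCAP cells had also been sorted. The summed level of 12 heat shock and chaperone genes, Hspa8, Hsp90ab1 and Hspd1 among them, was 9917 to 12490 CPM in the sorted G1 controls. It was 11000 to 11927 CPM in SYAT controls. The tables were normalised separately, so these levels are set side by side and were not tested. Cell cycle phase, staining and sorting cannot be told apart here.

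In CGR8 cells, which have no degron, 4 h of IAA left no member past the call rule of an absolute log2 fold change over 0.5 with a Benjamini-Hochberg adjusted p under 0.05 in edgeR's quasi-likelihood test. The rule called 0 of 10 members and 0.00988% of the 20250 genes tested (2 genes, Slc1a4 and Atf4), and DESeq2 called 0 members. Jun read 9.80 and 10.1 CPM in NT replicates 1 and 2 and 5.76 and 6.51 CPM with IAA. Junb read 50.3 and 45.7 CPM, then 40.4 and 35.1 CPM. For both, every IAA library was below every NT library, at log2 fold changes of −0.70 ± 0.20 (SE) for Jun and −0.35 ± 0.15 for Junb (adjusted p = 0.54 for each). They were the 2 members with an unadjusted p under 0.05 in the lower direction (4.12% of all genes), and none was in the higher direction (5.04%).

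Fos stood at 3.81 and 3.44 CPM in CGR8 NT cells and at 3.34 and 2.84 CPM with IAA, a log2 fold change of −0.23. Dusp1 was at 30.1 and 37.9 CPM, then 31.3 and 33.3 CPM, with overlapping groups. Egr3 was close to undetected in CGR8, at no more than 0.28 CPM in any library. The groups did not overlap for 3 members in the lower direction (20.6% of all genes) and 2 in the higher (21.6%). Over the 10 members, 3 log2 fold changes were above 0 (50% of all genes), and the median was −0.16 against −0.00 over all genes. Egr1 and Ier2 depended on 1 control library: without NT replicate 2, Egr1 was called higher (0.94, adjusted p = 1.74e-04) and Ier2 lower (−0.63, adjusted p = 0.0039), in a fit that called 10.9% of all genes. Without NT replicate 1, the library with the lowest mitochondrial share and the highest Ier2 (294 CPM against 201.5), 0 members were called (0.734% of genes).

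After 1 h of IAA, Fos RNA in EG1 cells was higher within each replicate pair. Fos read 34.4 and 21.6 CPM in control replicates 1 and 2 and 55.3 and 33.8 CPM in IAA replicates 1 and 2. Each IAA library was above the control of its own number, but the groups overlapped, because replicate 1 was the higher of the pair in all 4 sorted groups, by 1.38 to 1.64 times. Jun, the main partner of Fos in AP-1, read 115.8 and 74.3 CPM in controls and 165.3 and 102.8 CPM with IAA, again with replicate 1 above replicate 2 and an overlap between the groups.

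Same-numbered libraries of this table deviated together, so both fits are given. Without the replicate block, 0 members were called in EG1, as were 0 of 21020 genes (0%). No member had an unadjusted p under 0.05 (0.19% of all genes in the higher direction), and DESeq2 called 0. With the replicate block, Fos was called higher, at a log2 fold change of 0.66 ± 0.082 (SE, adjusted p = 0.00358, edgeR), against 0.67 ± 0.32 without it. It was the 1 gene called higher (0.00476%), beside 1 called lower, Cyp1a1. Jun passed the adjusted p at 0.49 (adjusted p = 0.0197, edgeR) but not the fold limit, and 0.0143% of genes passed that p at any fold. In fits with the block that each left out 1 library, the call of Fos depended on the EG1 libraries. Fos was not called without EG1 control replicate 1 (0.74), EG1 control replicate 2 (0.61) or EG1 IAA replicate 1 (0.57), although its fold change stayed above 0.5. Of the EG1 libraries, only EG1 IAA replicate 2 could be left out with Fos still called (0.75). The call also stayed without any 1 LG1 library, but these are not part of the contrast.

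The other members stood on the same side in EG1 by smaller amounts. All 10 log2 fold changes were above 0, against 50.1% of all genes, and 9 members were higher in both replicate pairs, against 28.5%. The exception was Egr3, at 13.4 and 4.07 CPM in controls and 12.7 and 5.68 CPM with IAA. The groups did not overlap for 5 members (7.98% of all genes): Junb, Ier2, Ier3, Dusp1 and Fosl1. Dusp1, which limits the MAP kinases that induce this class, read 87.5 and 94.3 CPM in controls and 111.7 and 111.5 CPM with IAA, and Ier3 6.39 and 7.35 CPM, then 9.67 and 8.51 CPM. The median log2 fold change of the 10 was 0.33 against 0.00 over all genes. With the block, 8 members had an unadjusted p under 0.05 in the higher direction, all but Fosl1 and Egr3, against 3.05% of all genes. The 6 trophoblast markers summed to 228.7 to 234.4 CPM in EG1 controls and 241.8 to 264.4 CPM with IAA, and their part in the members' values was not tested.

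**Figure D1:**
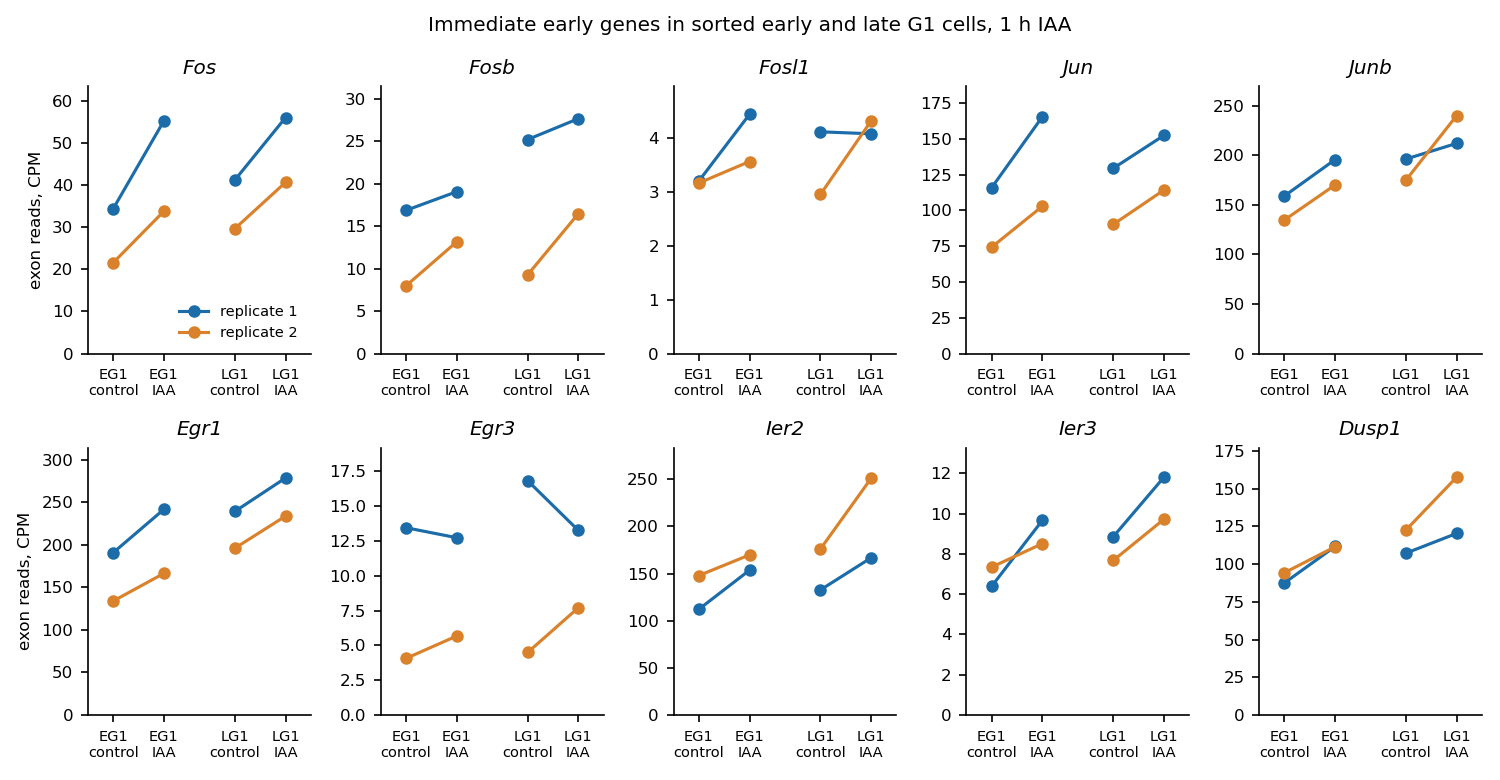
Exon CPM (linear axis, from 0) of the 10 members in EG1 and LG1 cells without and with 1 h of IAA, 1 panel per gene. Points are libraries and lines join libraries with the same replicate number. Fos lines run upward in both phases, from 34.4 to 55.3 CPM and from 21.6 to 33.8 CPM in EG1, with replicate 1 above replicate 2 throughout.

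In LG1 cells no member was called by edgeR in either fit. Without the block 0% of genes were called (0.00476% with it), no member had an unadjusted p under 0.05 (0.285% of all genes in the higher direction) and DESeq2 called 0 members. Fos read 41.2 and 29.7 CPM in controls and 56.1 and 40.7 CPM with IAA, so its values overlapped, at 0.45 ± 0.32 without the block and 0.45 ± 0.08 with it (adjusted p = 0.0854, edgeR). Ier2 read 132.7 and 176.1 CPM, then 166.8 and 251.0 CPM (0.42 with the block, adjusted p = 0.100, edgeR). Of the 10 members, 9 fold changes were above 0 (52.5% of all genes) and 8 members were higher in both replicate pairs (28.1% of all genes), with a median of 0.28. With the block 8 members had an unadjusted p under 0.05 in the higher direction, against 3.35%. Without LG1 IAA replicate 1 the fit with the block gave 0.53 for Fos and 0.56 for Ier2.

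The replicates differed more than the treatment for several members of this table, in a way that was shared across its groups. Fosb read 16.9 and 7.98 CPM in EG1 controls, 19.1 and 13.2 CPM in EG1 with IAA, 25.2 and 9.27 CPM in LG1 controls and 27.6 and 16.5 CPM in LG1 with IAA. Replicate 1 was above replicate 2 in all 4 groups for Fos, Fosb, Jun, Egr1 and Egr3, by 1.45 to 2.72 times for Fosb and 1.72 to 3.75 times for Egr3. Ier2 went the other way in all 4, with a ratio of replicate 1 to replicate 2 of 0.664 to 0.905. Members of the same class thus did not share 1 replicate pattern.

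The effect of IAA on the members was not shown to differ between the phases. The difference, EG1 minus LG1, was 0.22 ± 0.45 (SE) for Fos, and for no member did it have an unadjusted p under 0.05 in edgeR (0.699% of all genes, or 4.07% with the block).

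Before any IAA, the members stood lower in EG1 than in LG1 by small amounts. Egr1 read 190.9 and 134.0 CPM in EG1 controls and 239.2 and 196.0 CPM in LG1 controls. Of the 10 fold changes, 0 were above 0 (50.2% of all genes), the median was −0.31, and the groups did not overlap for 4 members (10.7% of all genes). No member was called by edgeR without the block (0% of genes), where none had an unadjusted p under 0.05 (0.709% in the lower direction), nor with it (0.723%), and DESeq2 called 0. With the block, Egr1, Dusp1, Fos and Junb had an adjusted p under 0.05 in edgeR at folds under the limit, from −0.34 to −0.44, against 1.68% of all genes. The same fit with IAA gave Egr1 (−0.35), Ier2 (−0.34) and Dusp1 (−0.31) an adjusted p under 0.05 (2.64% of genes). Markers of mESCs were also lower in EG1, with a median of −0.29 and an unadjusted p under 0.05 for 7 of 10 with the block. Their part in the result was not tested.

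Over 8 h of SRCAP loss in unsorted SYAT cells, Dusp1, Fos and Ier2 lay above both controls in every IAA library of the 4 time points. The same 2 controls served all 4 times, and the share of all genes with this pattern was not counted. For Ier2 the lowest IAA library was at 150.6 CPM and the higher control at 147.0 CPM. Dusp1 read 39.9 and 30.3 CPM at 0 h, 57.2 and 44.9 CPM at 2 h, 58.1 and 46.3 CPM at 4 h, 54.5 and 67.4 CPM at 6 h and 55.0 and 42.7 CPM at 8 h. Egr3 read 2.23 and 1.69 CPM at 0 h and 4.74 and 4.14 CPM at 2 h, its highest values of the time course, then 2.91 and 2.93, 3.77 and 3.50, and 2.69 and 1.97 CPM at 4, 6 and 8 h. Fos followed a like course, from 4.76 and 4.87 CPM at 0 h to 8.89 and 7.81 CPM at 2 h, with 5.22 to 8.12 CPM at the later times. For Egr3 all IAA libraries but 1 at 8 h were above both controls.

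These differences did not pass the call rule in the fit used for the time course. edgeR without the replicate block called 0 members at each time, with 0%, 0%, 0.0677% and 0.00521% of 19205 genes called at 2, 4, 6 and 8 h (0, 0, 13 and, at 8 h, 1 gene, Zfp423). DESeq2 called 0, 0, 1 and 0 members, the 1 being Dusp1 at 6 h, and the share of all genes that it called was not counted. edgeR with the block, given with its counts of all genes in the last section, also called Dusp1 at 6 h. The replicate numbers of the 6 h group were not shown to pair with those of the other times. The 4 comparisons share their 2 control libraries, so each one's own values are set side by side. Dusp1 gave log2 fold changes of 0.54, 0.57, 0.80 and 0.48 (SE 0.21 each), with adjusted p from 0.13 to 1.00 in edgeR. Egr3 gave 1.18 ± 0.29, 0.58, 0.89 and 0.25, and Fos 0.79 ± 0.27, 0.42, 0.47 and 0.41. Fosb went the other way, from 1.97 and 1.49 CPM at 0 h to 0.75 and 1.13 CPM at 4 h, with fold changes of −0.35, −0.86, −0.64 and −0.59.

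An unadjusted p under 0.05 in the higher direction was found at 2 h for Fos, Dusp1 and Egr3 (1.37% of all genes), at 4 h for Dusp1 (3.09%), at 6 h for Dusp1, Egr3, Junb and Ier2 (7.93%) and at 8 h for Dusp1 (5.13%). In the lower direction it was found for Fosb at 4 h (6% of genes). In edgeR's F test of any change over the 5 times, no member passed an adjusted p of 0.05 (0% of all genes), and Egr3 and Dusp1 had an unadjusted p under 0.05 (7.63%). Fold changes were above 0 for 9, 9, 7 and 7 members at 2, 4, 6 and 8 h, against 50.6%, 52.4%, 50.9% and 53.2% of all genes. The groups did not overlap, in the higher direction, for 7 (18.6% of genes), 4 (21.7%), 5 (21.5%) and 4 (20.9%). Medians of the 10 were 0.29, 0.23, 0.33 and 0.15 against 0.00, 0.02, 0.01 and 0.03 over all genes.

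Jun and Egr1 varied more between replicates than with time. Jun read 38.3 and 23.3 CPM at 0 h and 42.5 and 24.7 CPM at 8 h, with replicate 1 above replicate 2 at all 5 times by 1.25 to 1.73 times. Egr1 read 62.4 and 46.0 CPM at 0 h, 74.9 and 57.0 CPM at 2 h and 57.5 and 46.7 CPM at 8 h, also with replicate 1 above replicate 2 at all 5 times. Ier3 lay between 4.96 and 7.73 CPM and Fosl1 between 1.11 and 2.45 CPM over the 10 libraries. Ier3 was above both controls in both libraries at 2 and 8 h, and Fosl1 at 2 h. The 10 mESC markers had medians of 0.11, 0.16, 0.32 and 0.14 at 2, 4, 6 and 8 h, with 10, 9, 9 and 9 of 10 above 0. The 6 trophoblast markers summed to 135.8 and 83.7 CPM at 0 h, 144.2 and 111.8 CPM at 2 h, 173.0 and 113.7 CPM at 4 h, 165.8 and 152.0 CPM at 6 h and 169.8 and 103.4 CPM at 8 h, so replicate 1 was higher at each time and each IAA library was above the control of its number. The part of these markers in the members' values was not tested.

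Ier2 at 6 h rested on the library with a low mitochondrial share. It read 157.9 CPM in replicate 1 and 397.7 CPM in replicate 2, against 143.8 to 172.9 CPM in the other 8 libraries of the time course. Junb was also highest in this library, at 88.7 CPM against 52.5 to 74.1 CPM. Without 6 h replicate 2 the log2 fold change of Ier2 was 0.12 against 0.93 with it, and that of Junb 0.18 against 0.41. In that fit 0 members were called and Fos (0.76), Dusp1 (0.64) and Egr3 (0.95) had an unadjusted p under 0.05 in the higher direction, against 4.3% of all genes. Without 6 h replicate 1, Ier2 (1.46, adjusted p = 0.00151), Dusp1 (0.95) and Junb (0.62) were called by edgeR, in a fit that called 15.4% of genes. The part of this library's quality in the result was not tested.

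**Figure D2:**
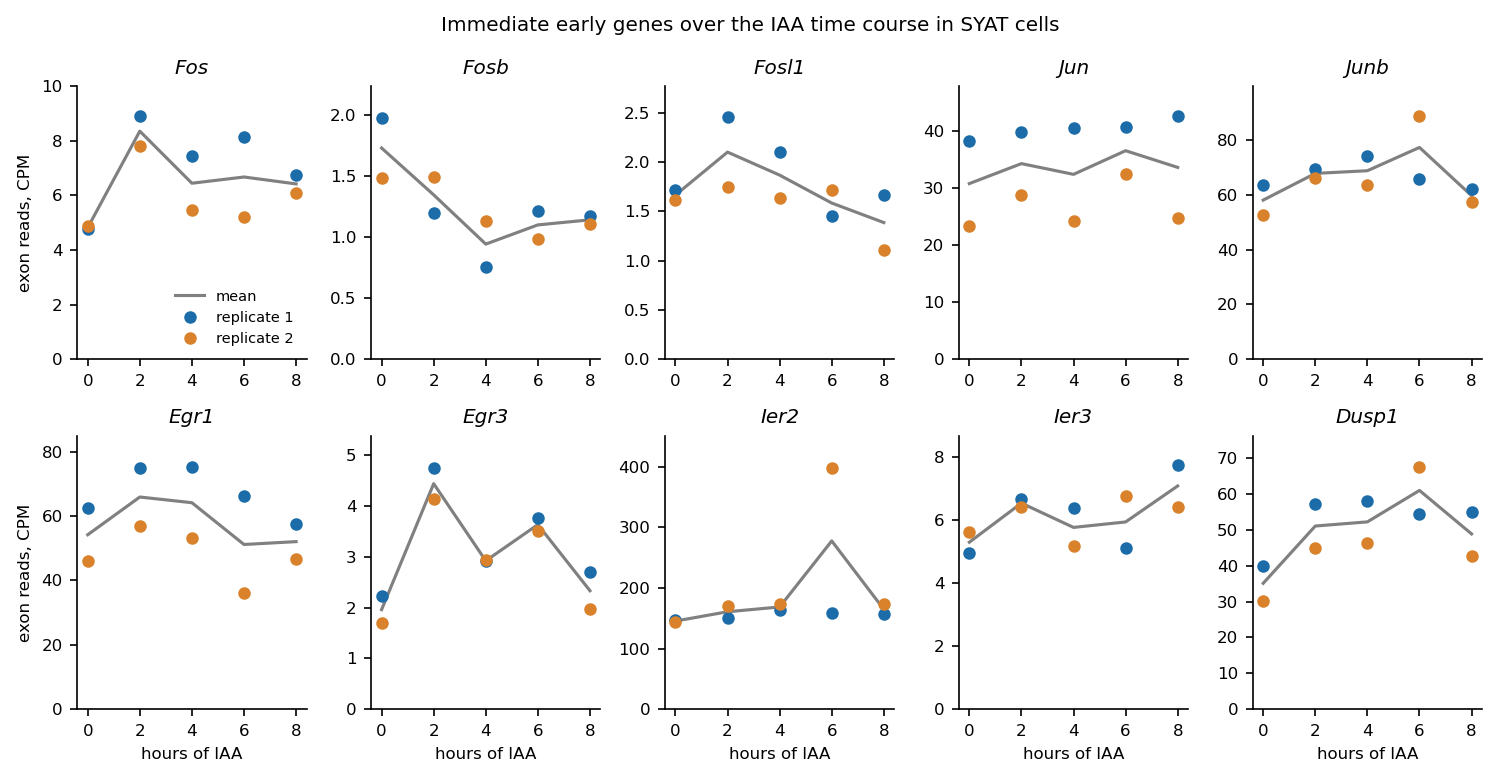
Exon CPM (linear axis, from 0) of the 10 members against hours of IAA in SYAT cells, 1 panel per gene. Points are the 2 libraries of a time and the grey line joins their means. Dusp1 lies above its controls (30.3 and 39.9 CPM) at all 4 times, Egr3 and Fos are highest at 2 h, and 1 library at 6 h sets Ier2 apart at 397.7 CPM.

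In cells with the wild-type transgene, 4 h of IAA brought higher Dusp1 and Ier2 in the fit that pairs the replicates. Dusp1 read 33.8 and 22.9 CPM in NT replicates 1 and 2 and 59.6 and 38.2 CPM with IAA. Ier2 read 173.5 and 188.2 CPM, then 318.7 and 227.1 CPM. Fos read 1.75 and 2.54 CPM, then 3.71 and 5.79 CPM. For these 3 members every IAA library was above every NT library, the only members in the higher direction of which this was so (14.9% of all genes).

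Without the block edgeR and DESeq2 each called 0 members, and edgeR called 0.00523% of 19111 genes (1 gene, Chac1, lower). Fos (1.15 ± 0.44), Dusp1 (0.78 ± 0.29) and Ier2 (0.59 ± 0.24) had an unadjusted p under 0.05, against 2.93% of all genes in that direction. With the block, Dusp1 (0.78 ± 0.20, adjusted p = 0.0335) and Ier2 (0.60 ± 0.16, adjusted p = 0.0441) were called by edgeR, as were 1.74% of all genes in the higher direction. Without the block 9 of 10 fold changes were above 0 (47.7% of all genes), the median being 0.49 against −0.02 over all genes.

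The remaining members of the wtSRCAP cells had overlapping groups. Jun read 18.1 and 11.0 CPM in NT cells and 29.4 and 15.1 CPM with IAA, and Junb 106.3 and 67.3 CPM, then 149.3 and 78.0 CPM, each with replicate 1 above replicate 2. Egr1 read 24.1 and 21.3 CPM, then 19.6 and 36.3 CPM, so its replicates went opposite ways. Fosb was the 1 member with a fold change under 0, at −0.07 ± 0.57. The mESC markers had a median of 0.27 in wtSRCAP and 0.20 in cdSRCAP cells, all 10 above 0 in both. The trophoblast markers summed to 205.0 and 69.5 CPM in wtSRCAP NT cells and 229.0 and 82.1 CPM with IAA, and to 77.0 and 66.3 CPM, then 92.3 and 80.7 CPM, in cdSRCAP cells. The part of these markers in the members' values was not tested.

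The wtSRCAP calls changed with wtSRCAP IAA replicate 1, which had the lowest mitochondrial share and the highest Ier2 and Junb of its table. Without this library, the fit with the block no longer called Ier2 (0.24) or Dusp1 (0.50). Fos stood at 1.37 and Egr1 at 0.69 in that fit. In the fit without the block Junb then stood at −0.13, under 0. Without IAA replicate 2 the fit with the block gave 0.91 for Jun, 0.68 for Junb, 0.96 for Ier2 and 1.07 for Dusp1. Dusp1 was also not called without NT replicate 2 (0.55, adjusted p = 0.38), nor was Ier2 without NT replicate 1 (0.56, adjusted p = 0.42) or NT replicate 2 (0.63, adjusted p = 0.18, edgeR in each). The part of library quality in these values was not tested.

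In cells with the ATPase-dead transgene no member was called, with or without the block, while the members stood on the same side. Jun read 9.19 and 10.4 CPM in NT cells and 17.0 and 14.1 CPM with IAA (log2 fold change 0.66 ± 0.36). Dusp1 read 26.2 and 31.4 CPM, then 37.1 and 41.6 CPM (0.45 ± 0.29), and Ier3 3.46 and 6.62 CPM, then 7.58 and 8.30 CPM (0.64 ± 0.38). All 3 had IAA libraries above both NT libraries. Fos read 5.87 and 3.72 CPM, then 4.50 and 7.49 CPM, with overlapping groups (0.33 ± 0.42).

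All 10 fold changes were above 0 in cdSRCAP cells (52.3% of all genes), with a median of 0.45, and the groups did not overlap for 6 members (18.7% of all genes). Without the block no member had an unadjusted p under 0.05 (1.65% of all genes in the higher direction), edgeR called 0% of genes and DESeq2 called 0 members. With the block 4 members did, Jun, Egr1, Ier3 and Dusp1 (7.16%), and 0.523% of genes were called higher. The fold changes of Egr3, 1.61 in wtSRCAP and 1.42 in cdSRCAP, came from levels of at most 1.15 CPM.

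The transgenes were not shown to differ in the response of any member. The difference, cdSRCAP minus wtSRCAP, was −0.82 ± 0.61 (SE) for Fos, −0.44 ± 0.34 for Ier2 and 0.06 ± 0.51 for Jun. No member had an unadjusted p under 0.05 in edgeR without the block (0.785% of all genes) or with it (2.94%). Between NT cells, Fos was at 5.87 and 3.72 CPM with cdSRCAP and 1.75 and 2.54 CPM with wtSRCAP, groups that did not overlap (1.14 ± 0.44, unadjusted p under 0.05 as for 2.5% of all genes in that direction), and edgeR called 0 members and 0% of genes, as DESeq2 called 0 members. Between IAA cells Junb was at −0.68 ± 0.32 in cdSRCAP against wtSRCAP. There edgeR and DESeq2 called 0 members, edgeR called 0.00523% of genes (1 gene, Gab1), and with the block Junb and Ier2 had an unadjusted p under 0.05 (7.06% in the lower direction). Without wtSRCAP IAA replicate 1 Junb was at −0.18 and Ier2 at −0.25, or −0.33 and −0.14 with the block.

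**Figure D3:**
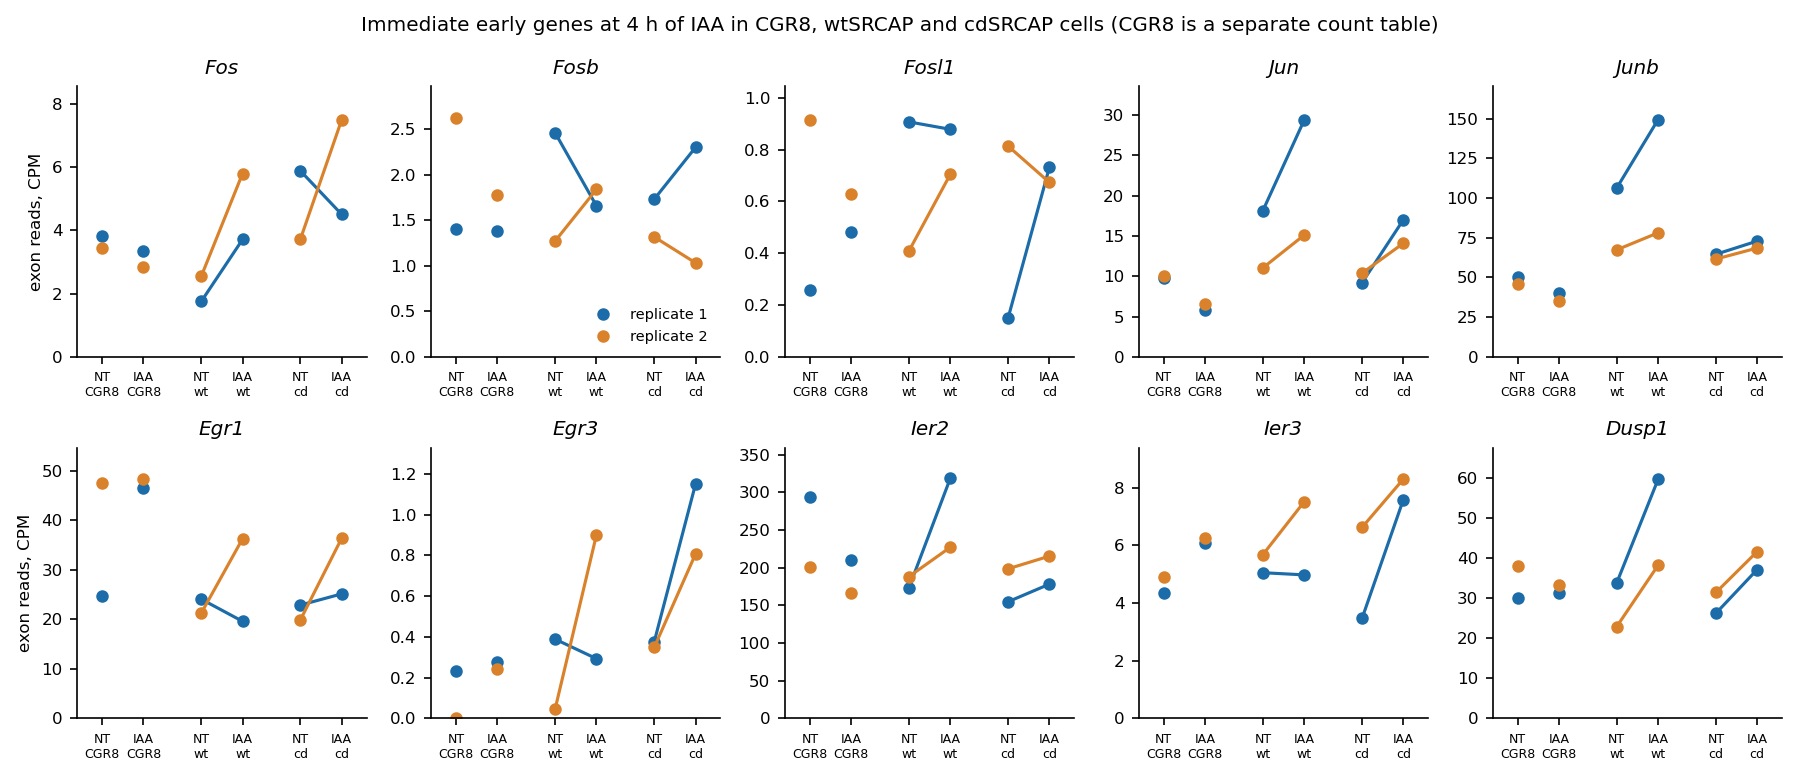
Exon CPM (linear axis, from 0) of the 10 members in control (NT) and 4 h IAA libraries of CGR8, wtSRCAP and cdSRCAP cells, 1 panel per gene. Points are libraries, lines join same-numbered wtSRCAP or cdSRCAP libraries, and CGR8 was normalised in a table of its own. Jun lies lower with IAA in CGR8 (9.80 and 10.1 to 5.76 and 6.51 CPM) and higher in cdSRCAP (9.19 and 10.4 to 17.0 and 14.1 CPM).

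Log2 fold changes are set side by side over the 8 comparisons of IAA with control in degron cells, 4 of which share controls. Among these, wtSRCAP and cdSRCAP cells kept a transgene SRCAP in both arms, so not all 8 are a loss of SRCAP. They were above 0 in all 8 for some members: 0.33 to 1.15 for Fos, 0.07 to 0.66 for Jun and 0.04 to 0.41 for Junb. The same held for Ier2 (0.15 to 0.93), Ier3 (0.12 to 0.64) and Dusp1 (0.27 to 0.80). The other members crossed 0: Fosb ran from −0.86 to 0.37, Fosl1 from −0.27 to 0.45, Egr1 from −0.08 to 0.53 and Egr3 from −0.02 to 1.61. The upper ends for Ier2 and Junb rested on the libraries with a low mitochondrial share: without 6 h replicate 2 Ier2 was at 0.12 and Junb at 0.18 at 6 h, and without wtSRCAP IAA replicate 1 Junb was at −0.13 in wtSRCAP cells. CGR8, in a table that was normalised apart, gave −0.23 for Fos, −0.70 for Jun, −0.35 for Junb, −0.39 for Ier2, 0.41 for Ier3 and −0.07 for Dusp1. It gave −0.35 for Fosb, −0.09 for Fosl1, 0.39 for Egr1 and, at no more than 0.28 CPM, 1.18 for Egr3.

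**Figure D4:**
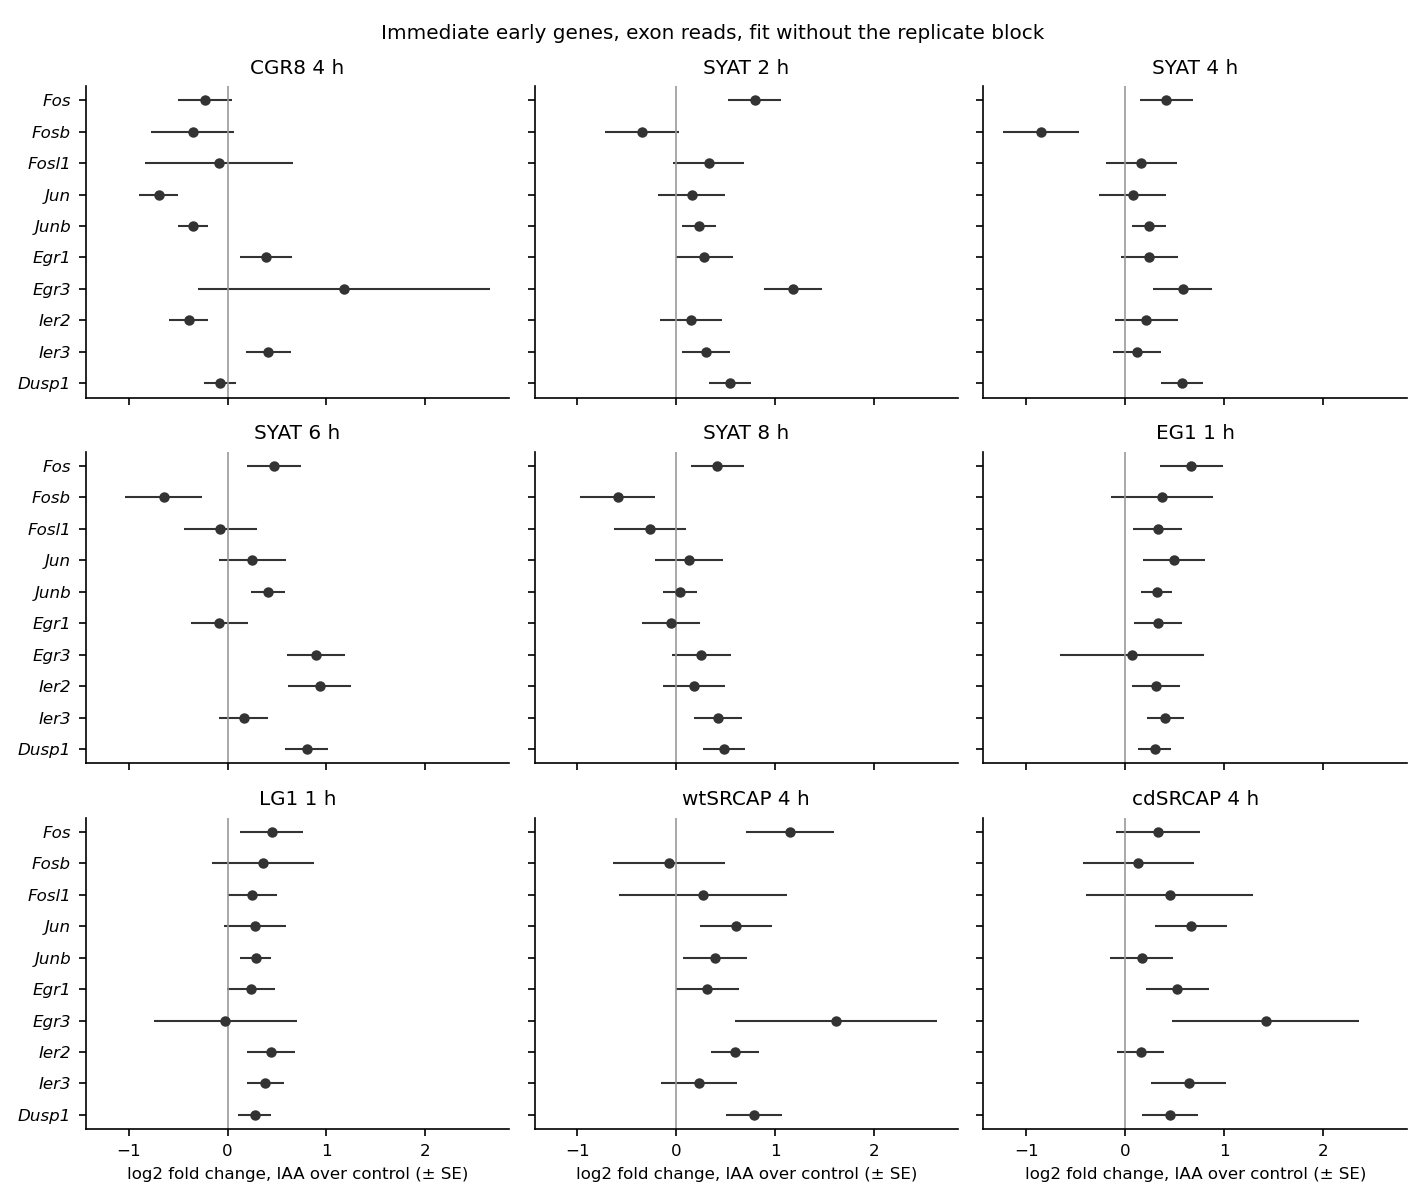
Log2 fold change of IAA over control (exon columns, edgeR without the replicate block) with its SE for the 10 members, 1 panel per comparison on a shared axis. Points lie right of 0 for 10 of 10 members in EG1 and cdSRCAP, for 9 in LG1 and wtSRCAP, and for 3 in CGR8.

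Other immediate early and delayed primary response genes, a list of 42, stood mostly on the same side as the members. In EG1, 40 of 42 fold changes were above 0 without the block (50.1% of all genes). With it the median was 0.21, 23 genes had an unadjusted p under 0.05 in the higher direction (3.05% of all genes) and none was called, the smallest p being for Atf3 (0.69), a stress-induced bZIP factor, and Trib1 (0.44), a pseudokinase (adjusted p = 0.0642 for each, edgeR). In LG1 the block gave a median of 0.15 and 17 such genes (3.35%). Over the time course 38, 36, 35 and 35 of 41 tested were above 0 at 2, 4, 6 and 8 h (50.6%, 52.4%, 50.9% and 53.2% of all genes), with medians of 0.37, 0.32, 0.50 and 0.35. Of these, 11, 12, 18 and 12 had an unadjusted p under 0.05 in the higher direction, against 1.37%, 3.09%, 7.93% and 5.13% of all genes. Without 6 h replicate 2, 36 of 42 were above 0 at 6 h with a median of 0.42, and 14 had such a p (4.3% of all genes). None passed the adjusted p in edgeR, and Phlda1, a gene induced by growth factor signals, stood at 0.89, 1.39, 1.35 and 1.32.

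In wtSRCAP cells 36 of 40 tested genes of this list were above 0 (47.7% of all genes), with a median of 0.53. With the block 10 were called higher (1.74% of all genes), among them Fosl2 (1.31) and Jund (0.98), further AP-1 subunits, Trib1 (1.05) and Mcl1 (0.72), a BCL2 family survival protein. Without wtSRCAP IAA replicate 1 the same fit called 5 (2.21% of all genes in either direction). In cdSRCAP cells 34 of 40 were above 0 (52.3%), with a median of 0.26, and the block called Fosl2 (1.35) and Trib1 (0.98), where 0.523% of all genes were called higher. In CGR8, 19 of 40 were above 0 (50%) and the median was −0.04.

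The factors and kinases upstream of these genes had smaller medians than the members in the degron cells. For the heat shock and chaperone genes this held in the sorted and transgene cells, and not shown for each time of the time course. Medians of 14 transcription factors that act on such promoters lay between −0.10 and 0.05 over the time course, and at −0.05 in EG1, −0.02 in LG1, −0.14 in wtSRCAP and 0.05 in cdSRCAP cells. Srf was called higher in wtSRCAP cells with the block (0.64, adjusted p = 0.0176, edgeR), but not without wtSRCAP IAA replicate 1 (0.49, adjusted p = 0.0536, edgeR). The 23 genes of the ERK and stress kinase cascades had medians of 0.02, 0.06, 0.08 and 0.11 over the time course, 0.03 in EG1, 0.07 in LG1, 0.01 in wtSRCAP and 0.22 in cdSRCAP cells. Among them Map2k6, a kinase upstream of p38, was called lower at 6 h (−1.96, adjusted p = 0.045, edgeR), but not without 6 h replicate 2 (−1.80). In the fit without that library Map2k6 stood at −0.44, −1.25 and −2.03 at 2, 4 and 8 h. With the block and without wtSRCAP IAA replicate 1, it stood at −0.84 in wtSRCAP and −1.42 in cdSRCAP cells. The heat shock and chaperone list had medians of 0.08 in EG1, 0.04 in LG1, 0.11 in wtSRCAP, 0.19 in cdSRCAP and 0.02 in CGR8. Over the time course its medians were at most 0.17. In bulk libraries a larger share of responding cells and more RNA per cell cannot be told apart.

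The intron columns did not give a second reading of these short genes. In the time course and in EG1, the intron counts of Junb and Ier3 were identical to their exon counts in every library and those of Egr1 and Fosl1 were 0, while in LG1 the intron counts of 9 of 10 members were under 5% of the exon counts and 4 were 0 throughout. Intron contrasts of EG1 against LG1 accordingly passed the call rule for 10 of 10 members, where 59% of all genes did so in controls and 64.4% with IAA. Those contrasts compare columns of different content, and no level or difference between them is given. In CGR8 the intron columns were 0 in all libraries for 6 members, and in the wtSRCAP and cdSRCAP table for 4.

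The genes whose exon values ran most like the mean of the 10 members across the libraries of a table differed between tables. Over the 8 EG1 and LG1 libraries they were Slc40a1 (Pearson r = 0.981), Agtrap (0.977), 1810058I24Rik (0.972), Stat3 (0.970) and 4930556J24Rik (0.967). Over the 8 wtSRCAP and cdSRCAP libraries they were Trib1 (0.972), Dse (0.962), Slc29a1 (0.954), Prdm1 (0.950) and Noxo1 (0.948), and over the 10 time course libraries Arl8a (0.953), Nt5dc3 (0.945), Gas1 (0.941), Lgr4 (0.939) and Fam19a5 (0.933). In CGR8 they were Lpcat4, Gm43766, Rbm17, Susd4 and Irs1, over 4 libraries only. They are the highest values among all genes tested, over few libraries, and are given as a description.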

How the data were processed

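Nuclear RNA was profiled in 30 libraries with a stranded kit. The raw counts of the 4 tables were deposited by the authors, who used STAR on the mm10 build and then featureCounts over exons and introns of GENCODE vM25. The submitters' processing notes also name SAMtools 1.10, Picard and DESeq2. The strand setting and other versions are not given in the sources used here. The authors' own comparison tables were not used, and 0 columns of per-sample values matched no sample.

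Groups came from the labels. Gene IDs were matched to GENCODE vM21 symbols (55141 of 55401). Each table was filtered (filterByExpr, minimum count 10, minimum total 15), scaled by TMM and tested across all genes with edgeR 4.0.16 (R 4.3.3), Benjamini-Hochberg adjusted. A call needed an absolute log2 fold change over 0.5 and an adjusted p under 0.05. SE is the log2 fold change divided by the square root of F. All groups of a table shared 1 fit. DESeq2 1.42.0, RLE size factors, no filter, a replicate block and leaving out libraries were alternatives. Scripts were tested on simulated data. The members and lists were chosen with earlier results of these data known. Of each further list, called genes were named (at most 4, by p), or else the 2 with the smallest p (Slc1a4, Atf4, Zfp423, Cyp1a1, Chac1 and Gab1 were named as the few called, after their values were seen).

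Pairing was checked by correlating deviations from group means between same-numbered libraries, paired by their labels' replicate numbers. The correlation was 0.372 to 0.586 in the EG1 and LG1 table (6 of 6 pairs of groups over 0.1) and 0.259 to 0.376 in the wtSRCAP and cdSRCAP table (6 of 6), so blocked values are given there. Replicates were biological duplicates, which limits precision to the spread of 2 libraries.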

Additional observations from a re-analysis of the deposited data

Results flagged for a closer look

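For 3 members every IAA library lay below every control library in CGR8 and above every control library in a degron line at 4 h. The difference in log2 fold change, degron line minus CGR8, was 0.65 for Fos in SYAT, 1.38 for Fos in wtSRCAP, 1.36 for Jun in cdSRCAP and 0.51 for Junb in cdSRCAP. The differences were not tested, since the CGR8 libraries were in a table of their own. With 2 libraries a group, 20.6% of all genes had every IAA library below the controls in CGR8. Every IAA library was above them for 21.7% in SYAT at 4 h, 14.9% in wtSRCAP and 18.7% in cdSRCAP. The share of all genes with both patterns was not counted, and these members were picked by them.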

How the results depend on the processing

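Of 29 comparisons, 15 gave the same count of members called under all alternatives. The replicate block moved members called from 0 to 1 at 6 h (Dusp1, 0.82, adjusted p = 0.0361, edgeR), to 1 in EG1 and to 2 in wtSRCAP, and changed no other count of members. In CGR8 and the time course the numbers were not shown to pair libraries (correlations of 0.0736 in CGR8, and in the time course −0.0359 to 0.0623 in the 4 pairs of groups with 6 h and 0.267 to 0.589 in the other 6). The block raised all genes called from 2 to 500 in CGR8, 0 to 76 at 4 h, 13 to 823 at 6 h, 1 to 634 at 8 h, 0 to 2 in EG1, 1 to 612 in wtSRCAP and 0 to 345 in cdSRCAP, and for EG1 against LG1 from 0 to 152 in controls and 0 to 213 with IAA, and for cdSRCAP against wtSRCAP from 0 to 174 in NT cells and 1 to 269 with IAA. DESeq2, whose share of all genes called was not counted, called 1 member at 6 h. DESeq2 with the block called 2 at 6 h, 2 in EG1, 2 in wtSRCAP and 1 for cdSRCAP against wtSRCAP with IAA. Without the filter, 2 were called at 6 h and 1 in the F test. The block with RLE, added after seeing the data, gave 1 at 6 h, 2 in EG1 and 2 in wtSRCAP.

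Leaving out 1 library in turn, in some fits with the block (added after seeing the data), gave 0 to 2 members in CGR8, EG1, LG1 and cdSRCAP, 0 to 3 at 6 h, 0 to 4 in wtSRCAP and in cdSRCAP against wtSRCAP with IAA, and 0 to 1 in CGR8 introns, 6 h introns, the F test, EG1 against LG1 in controls and with IAA, cdSRCAP against wtSRCAP in NT cells and the difference of the transgenes' effects. Directions reversed 5 times: Egr1 in CGR8 introns without NT replicate 1 (range over libraries left out −0.71 to 0.0322), Dusp1 in LG1 introns without control replicate 1 (−0.00809 to 1.18), and, without wtSRCAP IAA replicate 1, Junb in wtSRCAP (−0.13 to 0.80) and, in cdSRCAP against wtSRCAP with IAA, Jun (−0.94 to 0.000839) and Dusp1 (−0.63 to 0.00304). Otherwise 64 values of single members came past the call rule and 1887 kept their side. The cause was not tested.

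Precision is that of 2 libraries a group, and counts of the least abundant members limit theirs.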
